A study of Mus musculus with 20 samples.

Results

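The flavin-containing monooxygenases are a small gene family of the mouse, and 4 of its genes, *Fmo1*, *Fmo2*, *Fmo4* and *Fmo5*, were followed here through 20 livers. Each has 1 probe set that the platform annotation assigns to that gene alone, so these members are 4 of the 19661 genes with a probe set of their own on this array. *Fmo9* and *Gm4847*, further genes listed with the family, also have such probe sets, are not counted among the members and are described at the end. The family was selected on measured values of these arrays, namely the lower level of *Fmo2* in KO than in WT liver. Differences between KO and WT are therefore given below as a description, with no test, whereas differences between the times of day were tested. For *Fmo2* the changes with time use the same values as the selection, so their sizes in KO and WT are not independent of it.

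The study compared livers of *Crem* knock-out (KO, Crem-/-) and wild-type (WT) mice at the end and at the onset of the light phase. *Crem* encodes a cAMP-responsive transcription factor. Whole liver RNA was hybridized to Affymetrix Mouse Gene 1.0 ST arrays with 1 mouse per array: 5 KO and 5 WT mice at 12 h (light end), and 5 KO and 5 WT mice at 0 h (light onset). All 20 mice were untreated, 8 weeks old and of the mixed 129Pas x C57Bl/J strain. They were fed freely and kept in a cycle of equal light and dark. The knock-out mice lack the gene in the whole animal, and a whole liver sample holds hepatocytes together with the other cells of the organ. In such samples fewer cells of a type and less RNA per cell cannot be told apart.

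Flavin-containing monooxygenases sit in the membrane of the endoplasmic reticulum. They hold FAD, take electrons from NADPH, and place 1 atom of molecular oxygen on the nitrogen or sulfur of drugs, pesticides and dietary amines, a route of detoxification that runs beside the cytochromes P450. *Fmo1* is a main drug-oxidizing form of mouse liver and kidney and can oxidize hypotaurine to taurine. *Fmo2* is best known as the form of the lung. *Fmo4* is the least studied of the 4 members. *Fmo5* is a prominent form of liver and gut that oxidizes ketones rather than amines, and mice without it are lean.

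In the RefSeq annotation *Fmo4*, *Fmo1* and *Fmo2* (probe sets 10359561, 10359571 and 10359582) follow one another on chromosome 1 with no other protein-coding gene between them. *Fmo5* (probe set 10494565) lies alone on chromosome 3 between *Chd1l* and *Prkab2*. Promoter sequences were available for 3 of the 4 members, as 4 windows of 250 bases upstream of annotated transcription starts (RefSeq, GRCm38.p6), and *Fmo1* had none. The windows of the chromosome 1 neighbours *Fmo2* and *Fmo4* are shown, since these 2 members changed most with time. Capitals mark the bases TGACG, the core of the cAMP response element, to which CREM family proteins bind. The *Fmo2* window is the outer of its 2 windows, chr1:162898759-162899008 on the minus strand, and the *Fmo4* window is chr1:162812550-162812799 on the minus strand.
Fmo2: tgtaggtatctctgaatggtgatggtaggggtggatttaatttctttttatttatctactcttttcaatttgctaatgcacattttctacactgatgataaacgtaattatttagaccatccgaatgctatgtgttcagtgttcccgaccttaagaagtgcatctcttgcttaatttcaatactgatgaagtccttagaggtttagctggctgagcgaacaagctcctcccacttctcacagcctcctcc
Fmo4: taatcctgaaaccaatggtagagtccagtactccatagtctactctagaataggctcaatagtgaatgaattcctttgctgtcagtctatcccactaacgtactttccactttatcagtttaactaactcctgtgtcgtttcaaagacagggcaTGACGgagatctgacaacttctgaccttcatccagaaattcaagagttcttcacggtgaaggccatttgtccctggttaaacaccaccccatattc

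The *Fmo4* window held 1 TGACG, 96 bases upstream of the start, and neither *Fmo2* window nor the *Fmo5* window held one. The full element TGACGTCA, the clock E-box CACGTG and the D-box (TTATGTAA or TTACGTAA) were also searched on both strands, and none was in any of the 4 windows. The full element contains the core. Among 32851 promoter windows of the same length, 17.8% held the core, 1.55% the full element, 6.02% the E-box and 0.931% the D-box. A match in letters is a description of the window and not a bound site.

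The median log2 value of an array was 7.07 to 7.17 at 12 h and 7.18 to 7.24 at 0 h, so that every 12 h array had a lower median than every 0 h array, and pairs of arrays correlated between 0.969 and 0.994. Values were given for 25689 probe sets. The 0 h livers carry the batch labels 1 to 4, each with both genotypes, and all 12 h livers carry batch 5, so time and batch cannot be told apart. *Crem* averaged 0.37 lower at 12 h and 0.48 lower at 0 h in KO livers (log2 scale). The liver labelled KO mouse 1 at 0 h, with a *Crem* level of 8.17, lay inside the WT range at that time (8.11 to 8.54), and the values of the members without it are given after them. The sources used here do not say whether the *Crem* probe set lies in the deleted stretch. The labels give no sex. *Xist* lay between 4.73 and 5.81 and the Y-linked *Eif2s3y* between 9.18 and 10.53 over the 20 arrays.

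*Fmo2* varied most among the members, over a range of 2.94 on the log2 scale. It was higher at light end than at light onset in both genotypes. In KO livers the log2 level at 12 h was 9.06, 9.56, 9.56, 9.59 and 9.73, against 7.69, 8.00, 8.15, 8.22 and 8.43 at 0 h. In WT livers it was 9.57, 10.34, 10.54, 10.56 and 10.63 at 12 h, against 7.80, 7.96, 8.02, 8.22 and 8.59 at 0 h. The times did not overlap in either genotype, and every 12 h liver lay above every 0 h liver. The share of all probe sets whose times did not overlap was not counted, for this member or for those below. The change was 1.40 in KO livers (standard error 0.18), or 2.64-fold with a 95% confidence interval of 2.03 to 3.44 (limma, adjusted p = 9.1e-06). In WT livers it was 2.21 (standard error 0.18), or 4.63-fold with an interval of 3.55 to 6.03 (limma, adjusted p = 2.72e-08). Without the liver labelled KO mouse 1 the change in KO was 1.48 (limma, adjusted p = 1.34e-05). Among the 0 h livers the means of the 4 batches differed by at most 0.42 for *Fmo2*, 0.13 for *Fmo4*, 0.09 for *Fmo5* and 0.19 for *Fmo1*. All 12 h livers are of batch 5, so this spread cannot tell time and batch apart.

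The lower *Fmo2* of KO livers, for which the family was selected, was seen at 12 h. Group means were 9.50 ± 0.26 in KO and 10.33 ± 0.44 in WT livers at 12 h, and 8.10 ± 0.27 in KO and 8.12 ± 0.31 in WT livers at 0 h (SD, n = 5 each). The difference between KO and WT was -0.83 at 12 h, where *Fmo2* in KO was 0.564 of its WT level, and -0.02 at 0 h. At 12 h the genotypes overlapped through WT mouse 167, whose 9.57 lay within the KO range, and 3 of 5 KO mice lay below all WT mice. Without that mouse the difference was -1.02, and without KO mouse 55, the lowest KO liver, it was -0.72. Within the batches of the 0 h livers the difference between KO and WT was -0.03, 0.21, -0.09 and 0.21. The change with time was smaller by 0.81 in KO than in WT livers. No test result is given for these differences, since the selection used them. By group mean the order was WT at 12 h, KO at 12 h, WT at 0 h and KO at 0 h, and only the last 2 neighbours differed by less than the larger of their SDs.

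**Figure D1:**
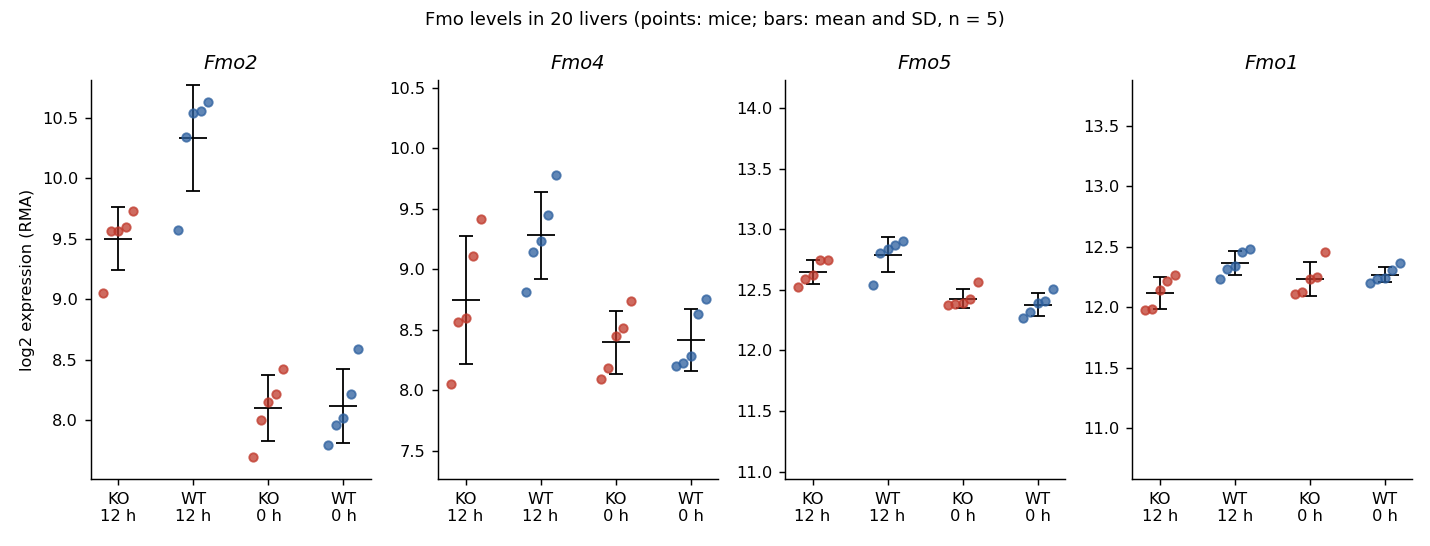
Log2 expression (RMA) of the 4 genes in each of the 20 livers, with KO left of WT and 12 h left of 0 h. Each point is a liver, the horizontal ticks and whiskers show group mean ± SD (n = 5), and every vertical axis spans the same number of log2 units. For *Fmo2* all 10 livers at 12 h lie above all 10 at 0 h, and the 12 h WT mouse at 9.57 sits among the KO mice.

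*Fmo4* was higher at light end in WT livers. In KO livers the log2 level was 8.06, 8.57, 8.60, 9.11 and 9.42 at 12 h, against 8.10, 8.19, 8.45, 8.51 and 8.74 at 0 h. In WT livers it was 8.81, 9.15, 9.23, 9.45 and 9.78 at 12 h, against 8.20, 8.22, 8.29, 8.63 and 8.76 at 0 h. The times did not overlap in WT, whereas in KO 2 of 5 livers at 12 h lay above all those at 0 h and 1 lay below them all. The change was 0.35 in KO livers (standard error 0.21), which did not pass (limma, adjusted p = 0.249, 95% confidence interval -0.08 to 0.78). It ranged from 0.18 without KO mouse 166 at 12 h to 0.52 without KO mouse 109 at 12 h, and passed in neither case (limma, adjusted p = 0.562 and 0.0636). The change was 0.86 in WT livers (standard error 0.21, 1.82-fold, limma, adjusted p = 0.00345). At 12 h the genotypes stood at 8.75 ± 0.53 in KO and 9.28 ± 0.36 in WT livers, a difference of -0.53, and at 0 h at 8.40 ± 0.26 in KO and 8.42 ± 0.26 in WT livers, a difference of -0.02 (SD, n = 5 each). Within the batches of the 0 h livers the difference between KO and WT ranged from -0.57 to 0.37. Neighbours in the order of group means were the same as for *Fmo2*, and here only WT and KO at 12 h differed by more than the larger SD.

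*Fmo5* changed less. In KO livers the log2 level was 12.53, 12.59, 12.62, 12.74 and 12.75 at 12 h, against 12.38, 12.38, 12.39, 12.43 and 12.56 at 0 h. In WT livers it was 12.54, 12.80, 12.83, 12.87 and 12.91 at 12 h, against 12.26, 12.32, 12.39, 12.41 and 12.51 at 0 h. The times did not overlap in WT, and in KO 4 of 5 livers at 12 h lay above all those at 0 h. The change was 0.41 in WT livers (standard error 0.08, 1.33-fold, limma, adjusted p = 0.000317). In KO livers it was 0.22 (standard error 0.08, 1.16-fold) and passed narrowly (limma, adjusted p = 0.0428). That call was lost with the batch as a random block (limma, adjusted p = 0.0552) and when any of 8 of the 20 mice was left out, all of them KO mice (0 h mice 1, 77, 143 and 144 and 12 h mice 55, 109, 110 and 166, adjusted p up to 0.103). The means were 12.65 ± 0.10 in KO and 12.79 ± 0.14 in WT livers at 12 h, and 12.43 ± 0.08 in KO and 12.38 ± 0.09 in WT livers at 0 h (SD, n = 5 each), so that KO differed from WT by -0.15 at 12 h and by 0.05 at 0 h. Within the batches of the 0 h livers the difference ranged from -0.12 to 0.25. In the order of group means, WT at 12 h, KO at 12 h, KO at 0 h and WT at 0 h, only the last 2 neighbours differed by less than the larger SD.

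*Fmo1* did not pass between the times in either genotype. In KO livers the log2 level was 11.98, 11.98, 12.14, 12.22 and 12.26 at 12 h, against 12.11, 12.12, 12.23, 12.25 and 12.46 at 0 h. In WT livers it was 12.24, 12.32, 12.34, 12.45 and 12.48 at 12 h, against 12.20, 12.23, 12.24, 12.30 and 12.36 at 0 h. The times overlapped in both genotypes. The difference between 12 h and 0 h was -0.12 in KO livers (limma, adjusted p = 0.314, 95% confidence interval -0.28 to 0.04) and 0.10 in WT livers (limma, adjusted p = 0.37, interval -0.06 to 0.26). At 12 h, 4 of 5 KO mice lay below all WT mice, with means of 12.12 ± 0.13 in KO and 12.37 ± 0.10 in WT livers, a difference of -0.25. At 0 h the means were 12.23 ± 0.14 in KO and 12.27 ± 0.06 in WT livers (SD, n = 5 each), and batch by batch this difference ranged from -0.15 to 0.02 among the 0 h livers. No 2 neighbours in the order of group means, WT at 12 h, WT at 0 h, KO at 0 h and KO at 12 h, differed by more than the larger SD.

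In all, 2 of 4 members rose at light end in KO livers and none fell, where 10.6% of all probe sets tested were called higher and 9.69% lower. In WT livers 3 of 4 rose and none fell, where 13.5% of all probe sets were called higher and 14.3% lower. The median change of the 4 members was 0.28 in KO and 0.64 in WT livers, beside -0.02 in KO and -0.03 in WT livers over all probe sets. With each array centred on its median the split over all probe sets moved to 3676 higher and 1603 lower in KO livers, against 2722 and 2489 as deposited, and to 5294 higher and 1995 lower in WT livers, against 3462 and 3682 as deposited. The members kept their direction and their side of the threshold under this centring.

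**Figure D2:**
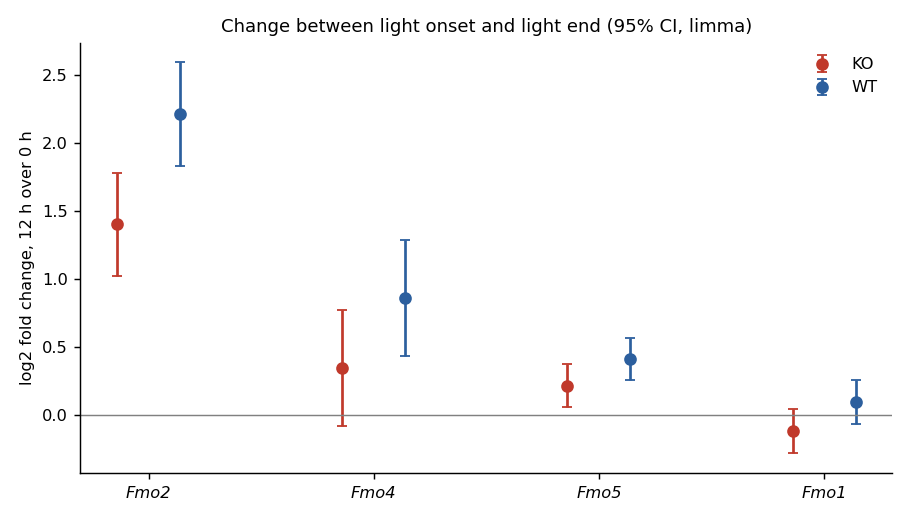
Log2 fold change of the 4 genes between 12 h and 0 h, in KO (left of each pair) and WT livers, with 95% confidence intervals from limma (5 mice per group). The interval of *Fmo2* runs from 1.02 to 1.78 in KO and from 1.83 to 2.59 in WT, and the intervals of *Fmo1* and of *Fmo4* in KO include 0. The difference between the *Fmo2* changes of the genotypes is tied to the selection, and no test result is given for it.

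Besides *Fmo2*, whose smaller change in KO livers is tied to the selection, *Fmo4* and *Fmo5* also changed less with time in KO than in WT livers. *Fmo1* had changes of opposite sign in the genotypes. How many of all probe sets changed less in KO livers was not counted. Apart from *Fmo2*, the difference of the changes was tested and did not pass for *Fmo1* (-0.21, 95% confidence interval -0.44 to 0.01, limma, adjusted p = 0.745), *Fmo4* (-0.51, interval -1.12 to 0.09, limma, adjusted p = 0.771) or *Fmo5* (-0.20, interval -0.42 to 0.02, limma, adjusted p = 0.76). At an unadjusted p under 0.05 limma called 0 of these 3, with unadjusted p from 0.0639 to 0.0917. Over all probe sets 0% were called for this difference after adjustment, and 1757 (6.84%) had an unadjusted p under 0.05 in limma. The loss of the *Fmo4* call in KO livers is thus not shown to be a difference between the genotypes.

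Without the liver labelled KO mouse 1, the change with time in KO livers was 0.38 for *Fmo4* (limma, adjusted p = 0.262) and -0.11 for *Fmo1* (limma, adjusted p = 0.393), and neither passed with or without it. The change of *Fmo5* was 0.22 and lost its call (limma, adjusted p = 0.0693). The difference of the changes was then -0.73 for *Fmo2*, -0.48 for *Fmo4*, -0.20 for *Fmo5* and -0.21 for *Fmo1*. The difference between KO and WT at 0 h was then -0.10 for *Fmo2*, -0.05 for *Fmo4*, 0.05 for *Fmo5* and -0.04 for *Fmo1*. Batch 2 holds no other KO liver and gives no difference without it.

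Between KO and WT, limma called 6 of 25689 probe sets at 12 h (0.0234%), 3 over both times (0.0117%) and 0% at 0 h. An unadjusted p under 0.05 in limma was seen for 3216 (12.5%) at 12 h, 2537 (9.88%) over both times and 1148 (4.47%) at 0 h. The members are described here by their values alone. The difference between KO and WT over both times was -0.42 for *Fmo2*, -0.28 for *Fmo4*, -0.14 for *Fmo1* and -0.05 for *Fmo5*. The KO and WT ranges overlapped at 12 h for each member, and the share of all probe sets with separate ranges was not counted.

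**Figure D3:**
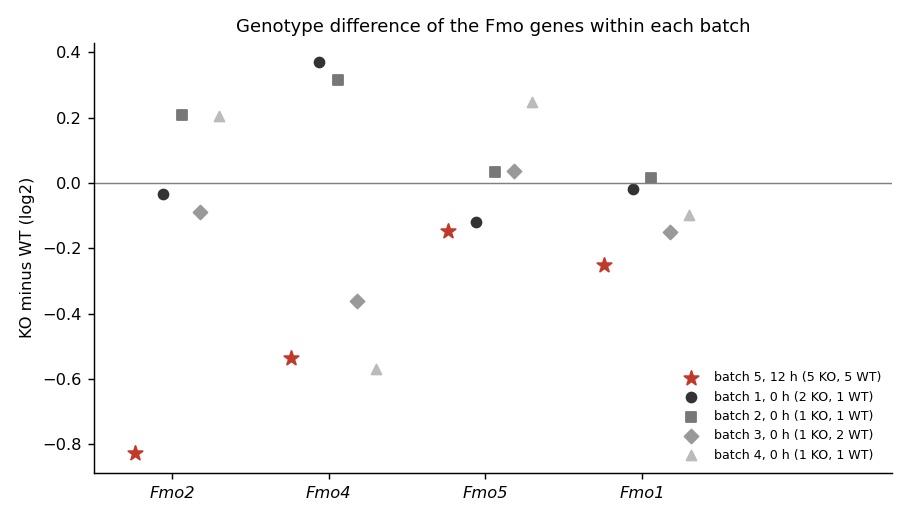
Difference between KO and WT livers (log2) of the 4 genes within each batch label, with the number of mice of each genotype in the key. Batch 5 holds the 12 h livers, where *Fmo2* is at -0.83 and *Fmo4* at -0.53, and batches 1 to 4 hold the 0 h livers with 2 or 3 mice each.

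The mean levels of some other lists of genes stood lower in KO than in WT livers at 12 h. Markers of stellate cells and fibroblasts (11 of 11 measured) had a mean log2 level of 8.92 to 9.03 in KO and 9.06 to 9.10 in WT livers. Single genes of this list went both ways, from -0.35 for *Reln* to 0.21 for *Col1a1*, with a median difference of -0.09. Markers of sinusoidal endothelium (11 of 11) lay at 9.43 to 9.71 in KO and 9.66 to 9.92 in WT livers, and periportal markers (7 of 10) at 12.51 to 12.72 in KO and 12.71 to 12.81 in WT livers. By gene the periportal difference ran from -0.59 for *Etnppl* to 0.06 for *Hsd17b13*, with a median of -0.11. *Etnppl* also stood lower in KO livers at 0 h (-0.54). Pericentral markers (10 of 10), with overlapping ranges, lay at 10.71 to 11.01 in KO and 10.87 to 11.11 in WT livers. Core clock genes (14 of 16) lay at 9.11 to 9.23 in KO and 9.29 to 9.47 in WT livers. Single clock genes went both ways, from -0.48 for *Arntl* and *Cry1* to 0.28 for *Dbp*, with a median difference of -0.09. General hepatocyte markers (8 of 10) lay at 13.71 to 13.77 in KO and 13.64 to 13.76 in WT livers, and markers of lung epithelium, the tissue *Fmo2* is best known from, at 6.38 to 6.54 in KO and 6.27 to 6.55 in WT livers (5 of 5). No single gene of these lists was called for genotype at 12 h, and the part of these lists in the lower *Fmo2* was not tested.

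With time, 10 of 14 core clock genes were called higher and 4 lower at 12 h in KO livers, and 10 higher and 2 lower in WT livers. Over all probe sets, 10.6% were called higher and 9.69% lower in KO livers, and 13.5% higher and 14.3% lower in WT livers. The counts of this paragraph are to be read beside these shares, and no list was tested against them. Markers of Kupffer cells, the macrophages of the liver (9 of 9 measured), were called lower for 2 genes and higher for 1 in KO livers, and lower for 5 and higher for 1 in WT livers. Their mean level was 9.11 to 9.54 at 12 h against 9.18 to 9.66 at 0 h in KO livers, and 9.05 to 9.44 at 12 h against 9.37 to 9.65 at 0 h in WT livers. Markers of sinusoidal endothelium were called higher for 1 gene and lower for 1 of 11 in KO livers, and higher for 4 and lower for 1 in WT livers. Their mean level was 9.62 at 12 h against 9.63 at 0 h in KO livers, and 9.80 at 12 h against 9.71 at 0 h in WT livers. Of 6 measured adipocyte markers, 2 were called lower in KO livers, *Lpl* (-1.47) and *Fabp4* (-0.85), and 1 in WT livers, *Lpl* (-0.68). The part of these lists in the changes of the members was not tested. Of 8 hepatocyte markers, 2 were called lower and none higher in either genotype.

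Genes that supply or surround these enzymes were counted in 6 lists, to be read against the shares of all probe sets called, 10.6% higher and 9.69% lower in KO and 13.5% higher and 14.3% lower in WT livers. No list was tested against these shares. Of 12 measured regulators linked to *Fmo* genes (14 named), 7 rose and none fell in KO livers and 8 rose and 1 fell in WT livers, with a median change of 0.30 in KO and 0.40 in WT. *Foxo1*, a transcription factor held in check by insulin, rose by 0.99 in KO (limma, adjusted p = 9.06e-08) and by 1.25 in WT livers (limma, adjusted p = 3.27e-09). *Ppara*, the fatty acid sensor of the fasted liver, rose by 0.90 in KO (limma, adjusted p = 1.77e-06) and by 0.83 in WT (limma, adjusted p = 4.75e-06). *Cebpa*, a hepatocyte transcription factor, rose by 0.41 in KO and 0.31 in WT. *Usf1*, a factor that binds E-boxes, fell by 0.39 in WT (limma, adjusted p = 0.00408), and its value in KO was -0.20 (limma, adjusted p = 0.144).

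Of 9 measured genes of NADPH supply (11 named), 1 rose and none fell in KO livers, and 5 rose and 1 fell in WT. The NAD kinase *Nadk*, which makes NADP, rose by 0.49 in both genotypes (limma, adjusted p = 0.00016 in KO and 0.000147 in WT). The mitochondrial transhydrogenase *Nnt* rose by 0.57 in WT (limma, adjusted p = 0.0264) and stood at 0.25 in KO (limma, adjusted p = 0.373). The kinase *Nadk2* rose by 0.21 in WT, and the cytosolic dehydrogenase *Idh1* fell by 0.19 there. Of 4 measured genes of flavin supply (7 named), *Slc25a32*, a mitochondrial carrier of FAD or folate, rose by 1.14 in KO (limma, adjusted p = 3.43e-07) and by 1.37 in WT livers (limma, adjusted p = 2.97e-08). Riboflavin kinase *Rfk* (-0.06 in KO, 0.04 in WT), the riboflavin transporter *Slc52a3* (-0.35 in KO, -0.21 in WT) and *Acp5* (-0.05 in KO, -0.23 in WT) did not pass.

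Of 6 electron transfer partners of the endoplasmic reticulum (7 named), 1 rose and 2 fell in KO livers and 1 rose in WT. *Cyb5r1*, a cytochrome b5 reductase, rose by 0.25, and the heme-binding membrane proteins *Pgrmc1* and *Pgrmc2* fell by 0.26 and 0.30 in KO, with values of 0.11, -0.13 and -0.21 in WT for these 3 genes. Cytochrome b5, *Cyb5a*, rose by 0.18 in WT and stood at -0.02 in KO. The mitochondrial form *Cyb5b* (-0.15 in KO, -0.18 in WT) and the reductase *Cyb5r3* (0.01 in KO, 0.03 in WT) did not pass. Of 17 other flavin or molybdenum oxidoreductases (20 named), 3 rose and 1 fell in each genotype. Xanthine dehydrogenase, *Xdh*, rose by 0.61 in KO (limma, adjusted p = 0.000841) and by 0.55 in WT livers (limma, adjusted p = 0.00194). *Pcyox1*, which degrades prenylated cysteines, rose by 0.36 in KO and 0.37 in WT. The quinone reductase *Nqo1* rose by 0.47 in WT and stood at 0.10 in KO (limma, adjusted p = 0.707). *Mtarc1*, which reduces N-hydroxylated compounds, fell by 0.34 in KO and 0.24 in WT.

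Taurine is a product of *Fmo1*, and of 7 genes of its synthesis and use (7 named) 1 rose and 2 fell in each genotype. The taurine transporter *Slc6a6* rose by 0.41 in KO and 0.36 in WT. *Baat*, which joins taurine or glycine to bile acids, fell by 0.47 in KO and 0.41 in WT. The decarboxylase *Csad* fell by 1.01 in WT (limma, adjusted p = 0.00866) and stood at 0.10 in KO (limma, adjusted p = 0.846). *Gadl1*, a related decarboxylase, fell by 0.35 in KO and stood at -0.14 in WT. The dioxygenases *Cdo1* (-0.16 in KO, -0.07 in WT) and *Ado* (-0.17 in KO, -0.07 in WT) and the transporter *Slc6a13* (-0.08 in KO, -0.06 in WT) did not pass. No gene of these 6 lists was called for the difference of the changes, and the lists were chosen with results of these arrays known.

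**Figure D4:**
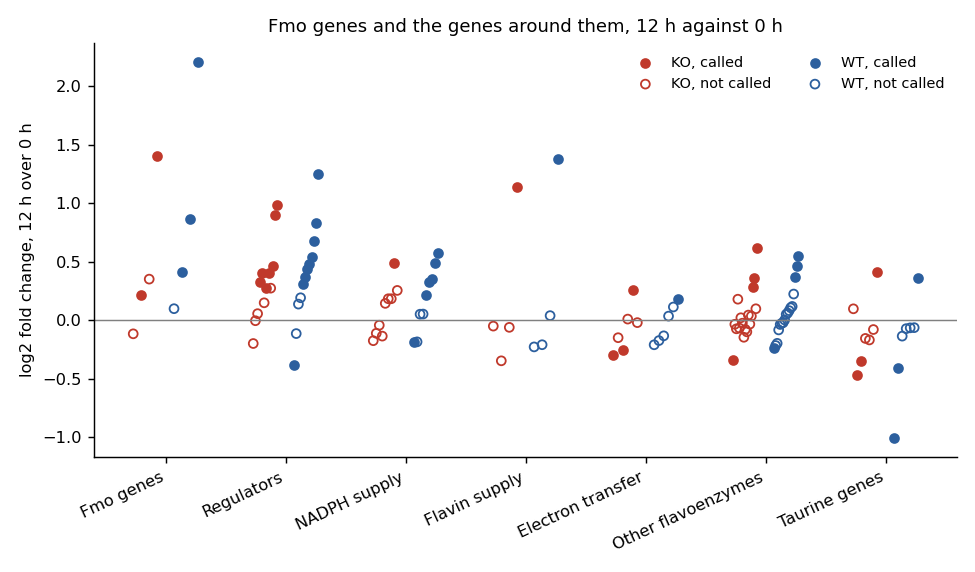
Log2 fold change between 12 h and 0 h in KO (left, red) and WT livers (right, blue) for the *Fmo* genes and 6 lists of genes around them. Each circle is 1 gene, filled where limma's adjusted p passed. *Fmo2* in WT, at 2.21, is the highest point plotted, and *Csad* in WT, at -1.01, the lowest.

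The members were also compared mouse by mouse, as deviations from the 4 group means (20 mice, 6 pairs). *Fmo1* and *Fmo4*, which lie side by side on chromosome 1, deviated together with r = 0.581 (permutation p = 0.0207, adjusted over 6 pairs 0.124) and Spearman's rho = 0.633 (permutation p = 0.013, adjusted 0.0778). Without the 2 mice farthest from the median, r was 0.651. *Fmo1* and *Fmo2* had r = 0.386 (permutation p = 0.109, adjusted 0.328) and rho = 0.301 (permutation p = 0.213, adjusted 0.427), and without 2 mice r was 0.44. With batch means also removed, *Fmo1* and *Fmo4* had r = 0.657 with rho = 0.675. In that setting *Fmo1* and *Fmo2* had r = 0.601 with rho = 0.54. These values are a description without a p-value, since mice were permuted within groups and not within batches. In batches 2 and 4, with 1 KO and 1 WT mouse each, the deviations of the pair are then forced to be equal and opposite. The other 4 pairs had r between -0.233 and 0.176, with adjusted permutation p of 0.732 or more, and none of the 6 pairs passed after adjustment on the deviations from group means alone.

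Among 20776 other probe sets of 1 gene, those whose deviations ran most like those of *Fmo2* over the 20 livers were *Chd7* (Pearson's r = 0.82), *Dnajc13* (0.81), *Ltn1* (0.81), *Cfap69* (0.80) and *Kat6a* (0.80). For *Fmo4* they were *Ctxn3* (0.85), *Dnajc15* (0.80), *Ccdc180* (0.79), *Ackr1* (0.78) and *Acly* (0.77). For *Fmo5* they were *Gm1322* (0.80), *Ctnnal1* (0.79), *Pkd2l2* (0.76), *Ccdc192* (0.76) and *Cpeb2* (0.76). For *Fmo1* they were *Mtrf1* (0.82), *Sec24a* (0.82), *Fgf1* (0.79), *Serpinb8* (0.78) and *L3mbtl3* (0.76). No member was among the 5 nearest of another. These are the highest of many correlations over the same 20 arrays and are given as a description.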

How the data were processed

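Log2 expression values per probe set, which the authors had deposited after RMA, were used. RMA corrects background, normalizes between arrays and summarizes probes. The submitters' processing notes give no version, and the sources used here do not say which arrays were normalized together. Single probes were thus out of reach. Levels of different genes were not compared with each other, and means over gene lists were compared only between groups of livers. Of 35557 probe sets, 9868 without a value were left out and 25689 were tested with no further filter. Genes were named from the platform annotation (20777 probe sets with 1 gene, 232 with several, 4680 with none). For a gene with several, the brightest stood for it.

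Groups followed the genotype and time of each label. limma 3.58.1 in R 4.3.3 fitted 4 group means over 20 arrays, with Benjamini-Hochberg adjustment over all probe sets and a threshold of 0.05. The model was tested on simulated data. Relations between members used 100000 two-sided permutations within groups. The text names the 4 members, *Crem*, genes of the lists (up to 4 called in WT, or any gene of a list described whole) and 5 nearest genes per member. Named outside this rule, after their values were seen, were *Xist*, *Eif2s3y*, *Fmo9*, *Gm4847*, *Arntl*, *Cry1*, *Dbp*, *Lpl*, *Fabp4*, *Etnppl*, *Hsd17b13*, *Reln* and *Col1a1*. The members and lists were chosen with earlier results of these data known. Alternatives were array weights, a robust prior with a trend, centring, quantile normalization, a brightness filter, the batch as a block, the arrays compared alone and leaving out each mouse. Sequences came from RefSeq (GRCm38.p6).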

Additional observations from a re-analysis of the deposited data

Results flagged for a closer look

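Of the 16 sets of 5 livers (4 members in 4 groups), 4 held 1 liver far from the other 4 by Dixon's test at the 95% level, and chance gives about 0.8. *Fmo2* at 12 h was 9.06 in KO mouse 55, below 9.56 to 9.73 in the other KO livers, and 9.57 in WT mouse 167, below 10.34 to 10.63 in the other WT livers. *Fmo5* at 12 h was 12.54 in WT mouse 111, below 12.80 to 12.91 in the others, and at 0 h 12.56 in KO mouse 76, above 12.38 to 12.43 in the others. Without KO mouse 55 the change of *Fmo2* with time in KO livers was 1.51, and without WT mouse 167 its change in WT livers was 2.40. Without WT mouse 111 the change of *Fmo5* in WT livers was 0.48, and without KO mouse 76 its change in KO livers was 0.25.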

How the results depend on the processing

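Over 680 values of the 4 members under the alternatives, 666 kept their direction and call or moved by less than the SD, 9 lost a call (*Fmo5* between the times in KO livers, limma, adjusted p up to 0.103) and 5 moved by more than the SD (differences between KO and WT at 0 h within single batches of 2 or 3 mice). The changes of *Fmo2* and of *Fmo4* and *Fmo5* in WT livers passed in all 28 alternatives each. Some alternatives, such as leaving out a mouse of the other genotype, cannot move such a change and alter only its standard error and adjusted p. The count of probe sets called between KO and WT at 12 h was 6, and it was 0 when limma was fitted to the arrays compared alone (2796 at an unadjusted p under 0.05), 2 after quantile normalization or with array weights, 3 with batch blocked as a fixed term, 11 with a robust, trended prior, and 23 after centring or among bright probe sets. With 1 mouse left out it ranged from 1 (without KO mouse 55) to 37 (without WT mouse 167), with 27 without WT mouse 169 and 11 without WT mouse 80. Over both times the count was 3, and 1 among bright probe sets, and 2 to 9 with 1 mouse left out (9 without WT mouse 167, 5 without KO mouse 144). The cause was not tested. Removing batch means raised r to 0.601 for *Fmo1* and *Fmo2* and 0.657 for *Fmo1* and *Fmo4*, with rho of 0.54 and 0.675. No p-value is given for that setting, since the permutation did not keep to batches. After centring, rho of *Fmo1* and *Fmo4* passed (0.674, permutation, adjusted p = 0.0391), and r did not (0.586, adjusted 0.116). Without WT mice 80 and 170 together, which stood apart from their groups (an alternative chosen after seeing the data), no call of a member changed. The correlation within batches was 0.0286 for the random block. No paired analysis was possible because the replicate numbers are mouse numbers and no mouse is in more than 1 group. The number of arrays limits the precision.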

Other observations

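*Fmo9* and *Gm4847*, 2 further genes listed with the family, have probe sets of their own farther along chromosome 1. *Fmo9* lay between 5.61 and 6.24 on the log2 scale over the 20 livers and did not pass between the times in KO (-0.13, limma, adjusted p = 0.452) or WT livers (-0.14, limma, adjusted p = 0.353). *Gm4847*, next to it, lay between 4.58 and 5.38 and stood at 0.13 in KO (limma, adjusted p = 0.448) and -0.01 in WT livers (limma, adjusted p = 0.965).

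Genes known to be higher in female liver (8 of 11 measured) had a mean log2 level of 6.26 in KO and 6.58 in WT livers at 12 h, and 6.09 in KO and 6.11 in WT livers at 0 h. Between the times, limma called 0 of 8 in KO livers (1 at an unadjusted p under 0.05) and 3 of 8 higher at 12 h in WT livers, where 10.6% of all probe sets in KO and 13.5% in WT were called higher. Genes known to be higher in male liver (9 of 11 measured) were called lower at 12 h for 2 genes in KO and 3 in WT livers, where 9.69% of all probe sets in KO and 14.3% in WT were called lower.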
